A study of Mus musculus with 9 samples.

Results

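The genes described here are Ucp3 and 9 other genes of mitochondrial uncoupling and fatty acid oxidation, 10 of the 27179 genes counted in mouse mandible. They were picked by name (Ucp2, Ucp3, Cpt1a, Cpt1b, Cpt2, Acadm, Hadha, Pdk4, Angptl4 and Cd36) with earlier results of the same comparison in view, so their differences between genotypes are given as a description and carry no test of their own. RNA was sequenced from whole mandibles, teeth included, of 6-month-old C57BL/6 males: 5 wild-type (WT) mice and 4 mice labelled FcγRIIB-/-, a germline deletion of the inhibitory Fc receptor of B cells and myeloid cells that is used as a lupus model. Each library is 1 mouse, and the deposited values were read counts per gene, with 24158960 to 26787359 counts per WT library and 21453880 to 28991631 per library labelled FcγRIIB-/-. Levels are CPM (read counts divided by library size) scaled by the trimmed mean of M values.

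Fatty acids reach muscle and other oxidative cells by lipoprotein lipolysis and membrane uptake, enter mitochondria as acylcarnitines, and are shortened there by the beta-oxidation enzymes. Pyruvate dehydrogenase kinases restrain glucose oxidation while fat is burned, and many genes of this programme are targets of the peroxisome proliferator-activated receptors (PPARs), nuclear receptors for fatty acids. UCP3 is the uncoupling protein of skeletal muscle and brown fat and rises there with fasting and fatty acid load, whereas UCP2 is widespread and abundant in immune cells.

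The targeted gene was read first. Fcgr2b had 577, 954, 442, 630 and 529 counts in WT mice 1 to 5 and 757, 562, 628 and 634 counts in mice 1 to 4 labelled FcγRIIB-/-. The mean level was 24.0 ± 8.28 CPM (SD, n = 5) against 27.8 ± 2.90 CPM (n = 4), a log2 fold change of 0.21 (SE 0.20) with an adjusted p of 0.442 in edgeR's quasi-likelihood test across all genes. The transcript was thus not lower in the libraries labelled as lacking the gene, and which exons the reads fell on was not analysed here. Every direction below is that of the label.

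Ucp3 had the widest genotype difference of the 10 genes. It lies at chr7:100472991-100486432 on the plus strand (GRCm38.p6, the RefSeq patch release of mm10), and its neighbour Ucp2 begins 6904 bases further on. The longest identical stretch between Ucp3 and Ucp2 transcripts was 24 bases, and between Cpt1a and Cpt1b transcripts 20 bases. The 250 bases before the start of Ucp3 and of 3 other genes are shown because they differ in known elements of metabolic promoters (RefSeq, GRCm38.p6, on the strand of the gene). Capitals mark AGGTCA, the hexamer bound by PPARs and other nuclear receptors (TGACCT on the other strand), CAGCTG, an E-box bound by myogenic factors, and GGGCGG, a GC box (CCGCCC on the other strand).
Ucp3, chr7:100472741-100472990: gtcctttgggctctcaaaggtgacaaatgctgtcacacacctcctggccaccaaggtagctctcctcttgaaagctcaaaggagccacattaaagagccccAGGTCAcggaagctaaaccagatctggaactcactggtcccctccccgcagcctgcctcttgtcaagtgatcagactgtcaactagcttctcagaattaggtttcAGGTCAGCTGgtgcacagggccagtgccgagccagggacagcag
Pdk4, chr6:5496279-5496528: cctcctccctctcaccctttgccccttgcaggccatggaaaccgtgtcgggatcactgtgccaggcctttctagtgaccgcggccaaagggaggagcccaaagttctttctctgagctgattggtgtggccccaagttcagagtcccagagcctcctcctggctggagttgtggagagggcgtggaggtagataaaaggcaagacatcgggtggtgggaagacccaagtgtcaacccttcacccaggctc
Cpt2, chr4:107923590-107923839: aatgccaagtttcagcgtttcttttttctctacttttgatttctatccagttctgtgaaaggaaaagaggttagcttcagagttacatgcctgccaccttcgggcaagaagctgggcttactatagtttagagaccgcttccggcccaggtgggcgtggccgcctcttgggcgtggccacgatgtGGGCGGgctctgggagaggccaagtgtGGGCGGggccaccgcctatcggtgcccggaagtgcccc
Acadm, chr3:153944644-153944893: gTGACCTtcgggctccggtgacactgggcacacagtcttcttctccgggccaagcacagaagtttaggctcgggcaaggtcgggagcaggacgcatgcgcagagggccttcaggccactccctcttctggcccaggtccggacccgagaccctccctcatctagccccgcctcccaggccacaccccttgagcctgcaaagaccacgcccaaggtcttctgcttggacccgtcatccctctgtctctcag

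Motifs were counted on both strands of the RefSeq windows, which run from 250 bases before to 50 bases after a transcript's start. The window matched 8 of the 10 genes; Angptl4 and Cpt1b had no entry. AGGTCA occurred in 4 of the 8 windows (Ucp3, Cpt1a, Cd36 and Acadm) and in 16.3% of all 32851 mouse windows. Ucp3 held it in 2 places, and the copy nearer the start shared its last bases with an E-box, spelled AGGTCAGCTG. CAGCTG occurred in 3 of the 8 windows, those of Ucp3, Ucp2 and Cpt1a, and in 16.3% of all windows. The full PPAR element, a direct repeat of AGGTCA with 1 base between its copies, was in none of the 8 and in 0.0396% of all windows, and TCAAGGTCA, the estrogen-related receptor element, was in none of the 8 and in 0.423% of all. GGGCGG occurred in 5 of the 8 and in 35.7% of all windows, and TATAAA in none of the 8 and in 13.6% of all. The Ucp3 window held 5 CpG dinucleotides, near the median of 7 over all windows, where the other 7 genes ranged from 3 at Cd36 to 22 at Cpt1a and Ucp2 had 21.

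Across all genes, 16329 passed the filter on low counts, and 33.3% of them differed between genotypes at an adjusted p of 0.05 in edgeR, the libraries labelled FcγRIIB-/- being higher for 14.0% and lower for 19.3%. Of the 10 genes 9 could be tested, of which 5 were higher (Ucp3, Cpt2, Pdk4, Angptl4 and Cd36), 0 were lower and 4 did not pass (Ucp2, Cpt1a, Acadm and Hadha). Their median log2 fold change was 0.33, against 0.0055 over all genes tested. Genotypes did not overlap for 2 of the 9, Ucp3 and Cpt2, where 29.6% of all genes tested did not overlap. The genes were chosen on this contrast, so these counts are a description only.

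Of the uncoupling proteins, Ucp3 measured 8.69, 3.81, 5.59, 10.6 and 11.1 CPM in WT mice 1 to 5. In mice 1 to 4 labelled FcγRIIB-/- it measured 31.7, 46.7, 33.6 and 20.9 CPM. The lowest of these lay well above the highest WT value, so the genotypes were fully apart. The means were 7.96 ± 3.17 CPM (SD, n = 5) and 33.2 ± 10.6 CPM (n = 4), a log2 fold change of 2.06 (SE 0.31). With 95 to 1010 counts per library, counting error was small beside the spread between mice.

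Ucp2, which encodes the related inner membrane carrier of leukocytes and many other cells, measured 365, 529, 417, 379 and 343 CPM in WT mice and 451, 490, 426 and 607 CPM in mice labelled FcγRIIB-/-. The genotypes overlapped, because WT mouse 2 was above 3 of the 4 mice of the other group, and the log2 fold change was 0.28 (SE 0.14). Within each genotype the mouse with the most Ucp2 (WT mouse 2 and mouse 4 labelled FcγRIIB-/-) had the least Ucp3. Ucp3 counts amounted to 2.38%, 0.721%, 1.34%, 2.80% and 3.23% of Ucp2 counts in WT mice and to 7.03%, 9.52%, 7.89% and 3.44% in the others. Ucp2 thus stayed the more abundant of these neighbours in every library, and the ratio did not overlap between genotypes. Of the 3 nearest protein-coding genes before Ucp3 and the 1 after Ucp2, picked by position, Ppme1 was higher (log2 fold change 0.19, SE 0.06), P4ha3 was lower (-0.44, SE 0.10), and C2cd3 (-0.25, SE 0.10) and Dnajb13 (-0.12, SE 0.49) did not pass.

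**Figure D1:**
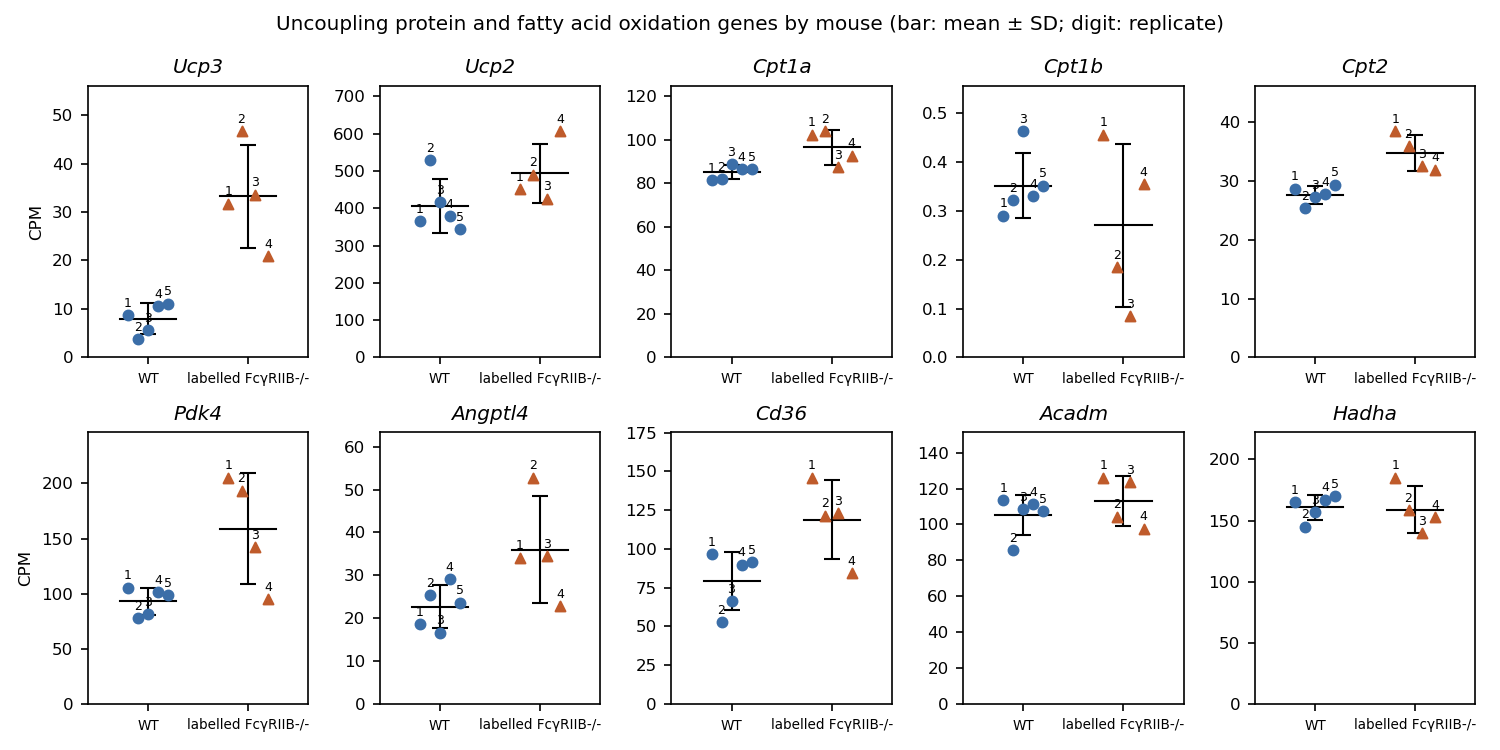
Level of each of the 10 genes in CPM (y axis, from 0, its own scale per gene) in WT mice (circles) and mice labelled FcγRIIB-/- (triangles); digits are replicate numbers, and bars are the mean with SD. Ucp3 and Cpt2 are the tested genes whose groups lie apart, and mouse 4 labelled FcγRIIB-/- is the lowest of its group for Ucp3, Cpt2, Acadm, Pdk4, Angptl4 and Cd36.

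The carnitine shuttle moves long-chain fatty acids across the mitochondrial membranes. Cpt1a, the liver-type outer membrane transferase and the shuttle's regulated step, measured 81.4, 82.0, 88.7, 86.5 and 86.5 CPM in WT mice and 102, 104, 87.3 and 92.6 CPM in mice labelled FcγRIIB-/-. Mouse 3 of the latter lay within the WT range, and the log2 fold change was 0.18 (SE 0.07), which did not pass here but passed with DESeq2.

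Cpt2, the inner membrane transferase that releases the acyl-CoA into the matrix, measured 28.7, 25.4, 27.2, 27.8 and 29.4 CPM in WT mice. It measured 38.5, 36.0, 32.5 and 31.9 CPM in mice labelled FcγRIIB-/-. The genotypes did not overlap, although the difference was small, with means of 27.7 ± 1.53 and 34.7 ± 3.07 CPM and a log2 fold change of 0.33 (SE 0.08).

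Cpt1b encodes the muscle-type outer membrane transferase, and almost no reads were assigned to it: 8, 8, 12, 9 and 9 counts in WT mice and 13, 4, 2 and 7 counts in mice labelled FcγRIIB-/-. It failed the count filter and was not tested. Its RefSeq span, chr15:89416405-89425862, lies wholly inside that of the readthrough gene Gm44502, which also takes in the adjacent Chkb, and 81.4% of the Cpt1b exon bases in GENCODE are shared with that gene. Gm44502 was listed at 0 in all 9 libraries, and how reads on overlapping genes were treated is not stated in the sources used here, so the Cpt1b values are uncertain and say little of its expression.

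The beta-oxidation enzymes among the 10 differed little. Acadm, the medium-chain acyl-CoA dehydrogenase, measured 114, 85.8, 109, 111 and 108 CPM in WT mice and 126, 104, 123 and 97.6 CPM in the others (log2 fold change 0.10, SE 0.10). Hadha, the alpha subunit of the mitochondrial trifunctional protein, measured 165, 145, 157, 167 and 170 CPM in WT mice and 185, 159, 140 and 153 CPM in the others (log2 fold change -0.015, SE 0.088). For both enzymes the genotypes overlapped widely.

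Pdk4, the fuel switch kinase that inactivates pyruvate dehydrogenase in fasted muscle, measured 105, 77.9, 81.5, 101 and 98.6 CPM in WT mice. It measured 205, 193, 142 and 95.1 CPM in mice 1 to 4 labelled FcγRIIB-/-. Of these, 3 lay above every WT mouse, but mouse 4 lay inside the WT range. The means were 92.9 ± 12.4 and 159 ± 50.6 CPM, and the log2 fold change was 0.78 (SE 0.20).

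The lipid supply genes had the same shape. Angptl4, a secreted inhibitor of lipoprotein lipase, measured 18.7, 25.3, 16.7, 29.1 and 23.7 CPM in WT mice and 34.1, 52.8, 34.4 and 22.8 CPM in mice labelled FcγRIIB-/- (log2 fold change 0.67, SE 0.23). Cd36, the fatty acid translocase of muscle, fat and capillary endothelium, measured 96.5, 52.8, 66.2, 89.8 and 91.4 CPM in WT mice and 146, 121, 123 and 84.3 CPM in the others (log2 fold change 0.58, SE 0.19). For both genes mice 1 to 3 labelled FcγRIIB-/- were above every WT mouse and mouse 4 was not. Both calls depended on single mice: with each of the 9 mice left out in turn, Angptl4 passed in 3 fits and Cd36 in 4, whereas Ucp3, Cpt2 and Pdk4 passed in all 9.

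Per kilobase of transcript, which allows levels of different genes to be compared, Ucp2 was the most abundant of the 10 in WT mice at 102 ± 18.4 CPM per kb, followed by Acadm at 51.5 ± 5.46, Hadha at 40.0 ± 2.52, Cd36 at 26.9 ± 6.39 and Pdk4 at 26.7 ± 3.55 CPM per kb. Cd36 and Pdk4 could not be ranked beyond their spread. Below them came Cpt1a (19.7 ± 0.737), Cpt2 (11.7 ± 0.644), Angptl4 (6.86 ± 1.52) and Ucp3 (3.25 ± 1.29 CPM per kb). Ucp3 was thus the scarcest member apart from Cpt1b in WT mandible. In the libraries labelled FcγRIIB-/- its mean, 13.6 ± 4.32 CPM per kb, lay between those of Cpt2 (14.6 ± 1.30) and Angptl4 (10.9 ± 3.76) and did not differ from either beyond the spread.

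Whole mandibles carry attached muscle, marrow, gingiva and teeth, and in such bulk samples a different number of cells of a type and a different amount of RNA per cell cannot be told apart. Skeletal muscle markers moved with the labels. Of 26 fast and slow fibre markers, 15 were higher and 0 lower, against 14.0% higher and 19.3% lower over all genes. None of the 26 markers was at 0 in all libraries, and the most abundant was Myh1, a fast myosin heavy chain. Their summed level was 23766, 10151, 16457, 20883 and 20309 CPM in WT mice and 42750, 24551, 25696 and 40045 CPM in mice labelled FcγRIIB-/-. The sum was 1.82-fold higher in the latter, and the genotypes did not overlap. Nearly all of it came from the panel listed as fast fibre, since the slow fibre panel, led by Casq2, summed to 27.8 ± 8.43 and 47.3 ± 6.41 CPM. The fast fibre panel also holds general muscle genes such as Acta1 and Ckm, so the sums do not give shares of fibre types.

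Levels were also divided by this muscle signal, which lowers the log2 difference of every gene by the same amount. Ucp3 per 1000 CPM of muscle markers was 0.366, 0.376, 0.340, 0.508 and 0.546 CPM in WT mice and 0.742, 1.90, 1.31 and 0.521 CPM in mice labelled FcγRIIB-/-. Mice 1 to 3 of the latter exceeded every WT mouse, and mouse 4, which had the second highest muscle sum, fell inside the WT range. The means were 0.427 ± 0.0932 and 1.12 ± 0.618 CPM, and the mean log2 ratio differed by 1.24. The differences of the other genes tested fell between -0.15 (Pdk4) and -0.89 (Hadha) on this scale, which follows from the division and is no result about them. With the mean log2 CPM of the muscle markers as a covariate in the edgeR fit, the log2 fold change was 1.72 (SE 0.44) for Ucp3, 0.20 (SE 0.12) for Cpt2, 0.58 (SE 0.30) for Pdk4, 0.89 (SE 0.33) for Angptl4 and 0.15 (SE 0.25) for Cd36, where standard errors were wider than without the covariate. The values of Ucp3, Cpt2, Pdk4 and Cd36 were smaller than without the covariate and that of Angptl4 larger, and of these 5 genes Ucp3 passed the threshold. The covariate did not overlap between genotypes either (6.15 to 7.31 in WT mice and 7.42 to 8.21 in the others), so genotype and muscle content cannot be told apart by it, and neither the pass nor the lost calls are read as a result. That fit called 1.31% of all genes higher and 6.04% lower.

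**Figure D2:**
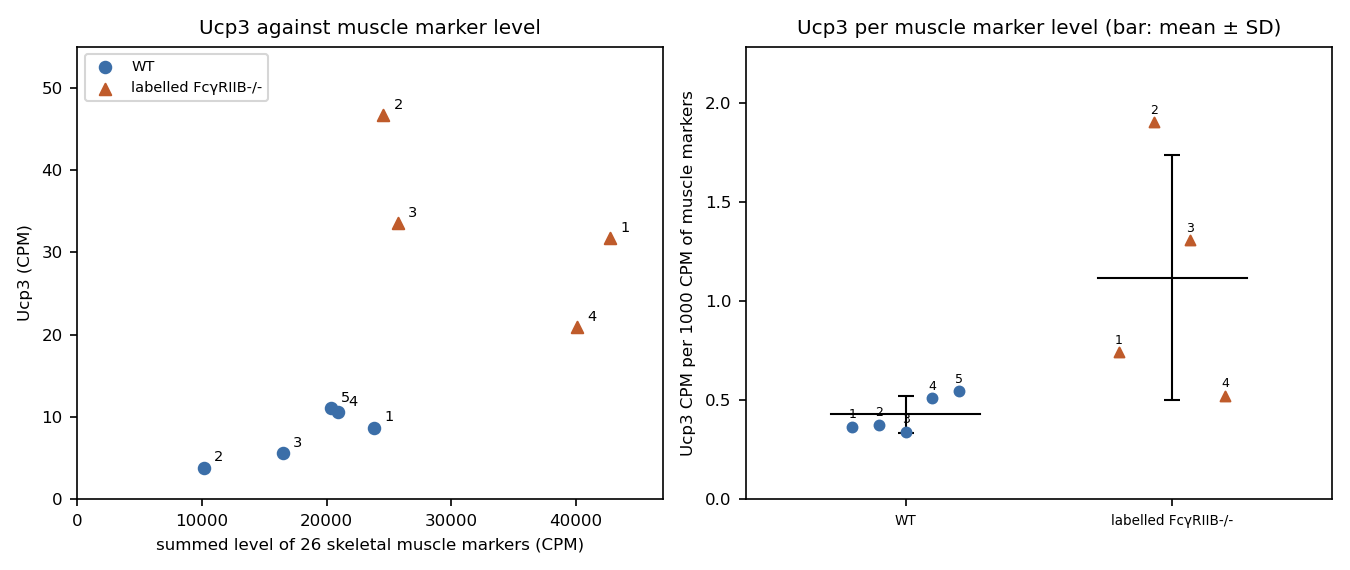
Left, Ucp3 (y axis, CPM) against the summed level of 26 skeletal muscle markers (x axis, CPM) in each WT mouse (circles) and each mouse labelled FcγRIIB-/- (triangles). Right, Ucp3 per 1000 CPM of those markers by genotype with mean and SD; 3 of 4 triangles lie above all circles, and mouse 4 at 0.521 lies below the WT mouse at 0.546.

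Other cell types that express these genes were read in the same way. The 12 adipocyte markers gave no common direction: Fabp4, the most abundant and also made by capillary endothelium, and Thrsp were higher, Adipoq and Dgat2 were lower, 3 did not pass, and Lep, Plin1, Retn, Pck1 and Adrb3 were too low to test. Adipoq, an adipokine, was at 3.72 CPM in WT mice and 1.29 CPM in the others (log2 fold change -1.53, SE 0.28, adjusted p = 0.00307 in edgeR). It was named after its values were seen, and the median log2 fold change of the panel was 0.022. The panel summed to 137, 81.8, 111, 128 and 152 CPM in WT mice and to 208, 146, 166 and 194 CPM in the others, with overlap. Ucp1, the uncoupling protein of brown fat, had at most 4 counts in any library.

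Of 11 endothelial markers, led by Pecam1, 3 were higher, 0 lower and 8 did not pass, against 14.0% higher and 19.3% lower over all genes. Their sums were 721 ± 34.1 CPM in WT mice and 821 ± 49.4 CPM in the others and overlapped. Macrophage markers, relevant to Ucp2 and Cd36, were lower for 4 of 9 tested and higher for 0, led by Csf1r, with sums of 471 ± 88.8 and 373 ± 36.1 CPM that overlapped. The part of fat, endothelium and macrophages in the levels of the 10 genes was not tested.

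Marrow granulocyte and erythroid markers were far lower. All 14 granulocyte markers, led by S100a9, were lower, with sums of 1829, 1579, 1248, 1948 and 3764 CPM in WT mice and 463, 167, 423 and 187 CPM in the others. Of 10 erythroid markers, led by Slc4a1, 9 were lower, with sums of 636 ± 105 and 99.6 ± 19.6 CPM. For B cells 6 of 8 markers, led by Blnk, were lower, with sums of 80.3 ± 31.7 and 56.1 ± 9.95 CPM that overlapped. The median log2 fold change of the B cell panel was -2.05. Over all genes 14.0% were higher and 19.3% lower. Of 12 keratinized epithelium markers, led by Krt14, 7 were lower and 1 higher (13444 ± 6417 and 6497 ± 674 CPM, with overlap). Of 8 tooth markers, led by Amelx, 5 were higher and 0 lower (22941 ± 7741 and 46559 ± 9654 CPM, no overlap). Among 10 osteoblast and osteocyte markers, led by Col1a1, 5 were lower and 0 higher (51853 ± 8576 and 47476 ± 4355 CPM, with overlap). The granulocyte and erythroid sums did not overlap between genotypes, so genotype and marrow content cannot be told apart by a covariate, and none of the 10 genes, nor any other gene, passed in a fit that held the granulocyte markers. The log2 fold changes in that fit were 2.37 for Ucp3, 0.53 for Cpt2, 1.21 for Pdk4, 0.46 for Angptl4 and 1.33 for Cd36. These were larger than without the covariate except for Angptl4, and the signs of Ucp2 (-0.28) and Hadha (0.26) turned. Neither these values nor the lost calls are read as a result, and the part of marrow content was not tested.

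**Figure D3:**
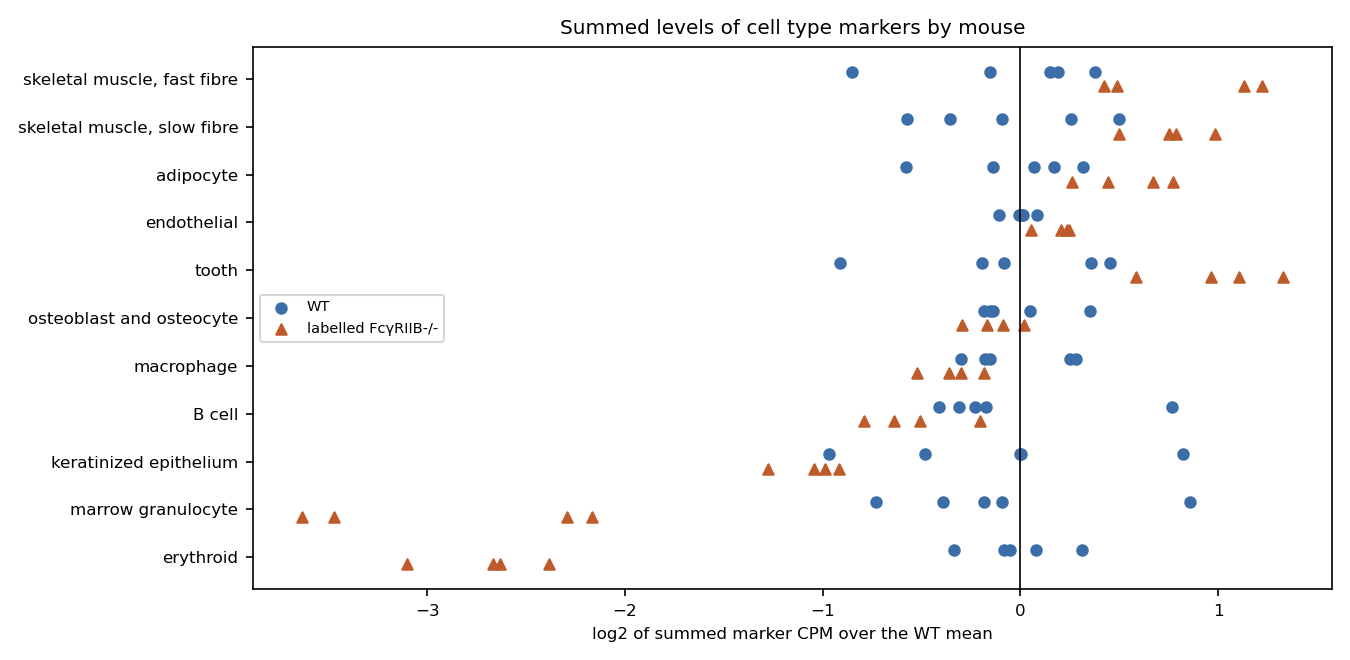
Summed CPM of each cell type marker panel in each mouse, as log2 over the WT mean (x axis); circles are WT mice and triangles mice labelled FcγRIIB-/-. Fast fibre muscle and tooth panels lie higher and granulocyte and erythroid panels lower in the latter, without overlap.

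The rest of the pathway was read from a list of 105 genes drawn up by role and not by how they moved. Of these, 100 were tested, 22 were higher and 8 lower, which compares with 14.0% and 19.3% of all genes, and 70 did not pass. Their median log2 fold change was 0.11. With the muscle markers as a covariate 1 was higher, Gpihbp1, and 7 were lower. That covariate did not overlap between genotypes, so calls made or lost under it, here and below, are not read as a result.

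In the lipase system, which frees fatty acids from lipoproteins and stored fat, 4 of 9 genes were higher and 0 lower. Over all genes these shares were 14.0% and 19.3%. Gpihbp1, the capillary anchor of lipoprotein lipase, measured 7.21, 4.74, 6.17, 7.93 and 6.40 CPM in WT mice and 12.6, 13.7, 12.6 and 14.4 CPM in mice labelled FcγRIIB-/-. The genotypes were well apart (log2 fold change 1.04, SE 0.14, adjusted p = 0.000768 in edgeR), and under the muscle covariate the log2 fold change was 0.70 (SE 0.18, adjusted p = 0.0485). Lpl, the lipase itself and the target of Angptl4, measured 247, 177, 229, 251 and 237 CPM in WT mice and 407, 324, 322 and 389 CPM in the others, again without overlap (log2 fold change 0.66, SE 0.12, adjusted p = 0.00267).

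In fatty acid uptake and activation 2 of 12 genes were higher and 2 lower, near the 14.0% higher and 19.3% lower over all genes. Fabp3, the fatty acid carrier of heart and muscle, was higher (log2 fold change 1.04, SE 0.19, adjusted p = 0.00330 in edgeR), as was the transporter Slc27a1 (0.45, SE 0.10, adjusted p = 0.00668). Fabp5, the epidermal fatty acid carrier, measured 271, 140, 223, 223 and 517 CPM in WT mice and 67.4, 71.0, 61.2 and 53.0 CPM in the others (log2 fold change -2.12, SE 0.32, adjusted p = 0.00126). Acsbg1, an acyl-CoA synthetase, was also lower (-1.62, SE 0.31, adjusted p = 0.00360). WT mouse 5, the highest for Fabp5 and Acsbg1, also had the highest keratinized epithelium sum, 23786 CPM, where the other 8 mice had 5556 to 13488 CPM. The part of epithelium in these genes was not tested.

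In mitochondrial beta-oxidation 8 of 20 genes were higher and 0 lower, with a median log2 fold change of 0.19. Over all genes 14.0% were higher and 19.3% lower. Acot13, a mitochondrial acyl-CoA thioesterase (log2 fold change 0.71, SE 0.11, adjusted p = 0.00159 in edgeR), and Etfb, a subunit of the flavoprotein that takes electrons from the acyl-CoA dehydrogenases (0.70, SE 0.10, adjusted p = 0.00116), led the group. Acadl, the long-chain dehydrogenase, measured 123, 88.6, 108, 119 and 116 CPM in WT mice and 152, 139, 155 and 137 CPM in the others (0.39, SE 0.09, adjusted p = 0.0103). Acadl therefore lay apart between genotypes where its medium-chain relative Acadm overlapped, though the difference between these enzymes was not tested. None of the 8 passed once the muscle markers were a covariate, a fit that called 1.31% of all genes higher. Their log2 fold changes were lower there, at 0.09 to 0.39 against 0.32 to 0.71 without the covariate, with standard errors of 0.09 to 0.14 against 0.08 to 0.12. Etfb, for example, was at 0.39 (SE 0.13, adjusted p = 0.0831) and Acot13 at 0.32 (SE 0.10, adjusted p = 0.0885) in edgeR with the covariate. The 8 genes were picked as passing without the covariate, which did not overlap between genotypes. Neither their lost calls nor their smaller values are read as a result, and the part of muscle content was not tested.

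Among 8 genes of the carnitine shuttle and its control, the carnitine-acylcarnitine carrier Slc25a20 (log2 fold change 0.24, SE 0.06) and Mlycd, which degrades the CPT1 inhibitor malonyl-CoA (0.43, SE 0.12), were higher. Acaca, which makes malonyl-CoA, was lower (-0.34, SE 0.07), with adjusted p values of 0.0141, 0.0225 and 0.00565 in edgeR for the 3 genes in this order. Cpt1c, the neuronal isoform, measured 0.13 (SE 0.11) on the log2 scale and did not pass (adjusted p = 0.388 in edgeR). Of this group 37.5% of genes passed, near the 33.3% of all genes tested.

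In pyruvate dehydrogenase control 1 of 10 genes was higher, the subunit Pdhb (log2 fold change 0.31, SE 0.09, adjusted p = 0.0259 in edgeR), and 1 lower, Pdpr, the regulatory subunit of the dehydrogenase phosphatase (-1.35, SE 0.20, adjusted p = 0.00117). Over all genes 14.0% were higher and 19.3% lower. The other kinases did not pass, with log2 fold changes of -0.23 (SE 0.10) for Pdk1, 0.35 (SE 0.18) for Pdk2 and 0.05 (SE 0.09) for Pdk3. With the muscle markers as a covariate Pdk1 passed as lower (-0.52, SE 0.12, adjusted p = 0.0304) and Pdk4, at 0.58 (SE 0.30), did not pass. Without that covariate Pdk4 was the kinase of the 4 that passed, and whether it differed from its relatives in this was not tested.

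Of 20 transcription factors and coactivators known to act on such genes, 3 were higher and 1 lower, against 14.0% higher and 19.3% lower over all genes. Ppara measured 6.77, 4.94, 7.48, 6.61 and 6.05 CPM in WT mice and 6.55, 5.87, 7.29 and 4.81 CPM in the others, overlapping throughout (log2 fold change -0.05, SE 0.16). Ppard (-0.08, SE 0.09), Pparg (0.10, SE 0.15) and Ppargc1a, the PGC-1 alpha coactivator (0.09, SE 0.12), did not pass either. Rxrg, the retinoid X receptor enriched in muscle (0.94, SE 0.19, adjusted p = 0.00462 in edgeR), and Lpin1, a phosphatidate phosphatase and coactivator (0.64, SE 0.10, adjusted p = 0.00139), were higher, and Foxo3, a forkhead factor of the fasting response, was lower (-0.72, SE 0.15, adjusted p = 0.00535).

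Of 13 genes listed under peroxisomal beta-oxidation 1 was higher and 2 lower, against 14.0% higher and 19.3% lower over all genes. The higher gene was Phyh, which starts the breakdown of phytanic acid by alpha-oxidation and is not itself a beta-oxidation enzyme (log2 fold change 0.46, SE 0.08, adjusted p = 0.00244 in edgeR). Acox2, the branched-chain acyl-CoA oxidase, had 52, 35, 83, 37 and 117 counts in WT mice and 0, 2, 1 and 0 counts in the others, too few for a reliable fold. It passed the count filter through the WT libraries alone, so its place among the 8 lower pathway genes follows from the filter and is given as a count only. Of the other uncoupling protein family carriers 1 of 3 was lower, Slc25a30 (-0.58, SE 0.19, adjusted p = 0.0343), and of 5 ketone body and thioesterase genes 1 was higher, the cytosolic thioesterase Acot1 (0.47, SE 0.13, adjusted p = 0.0201).

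**Figure D4:**
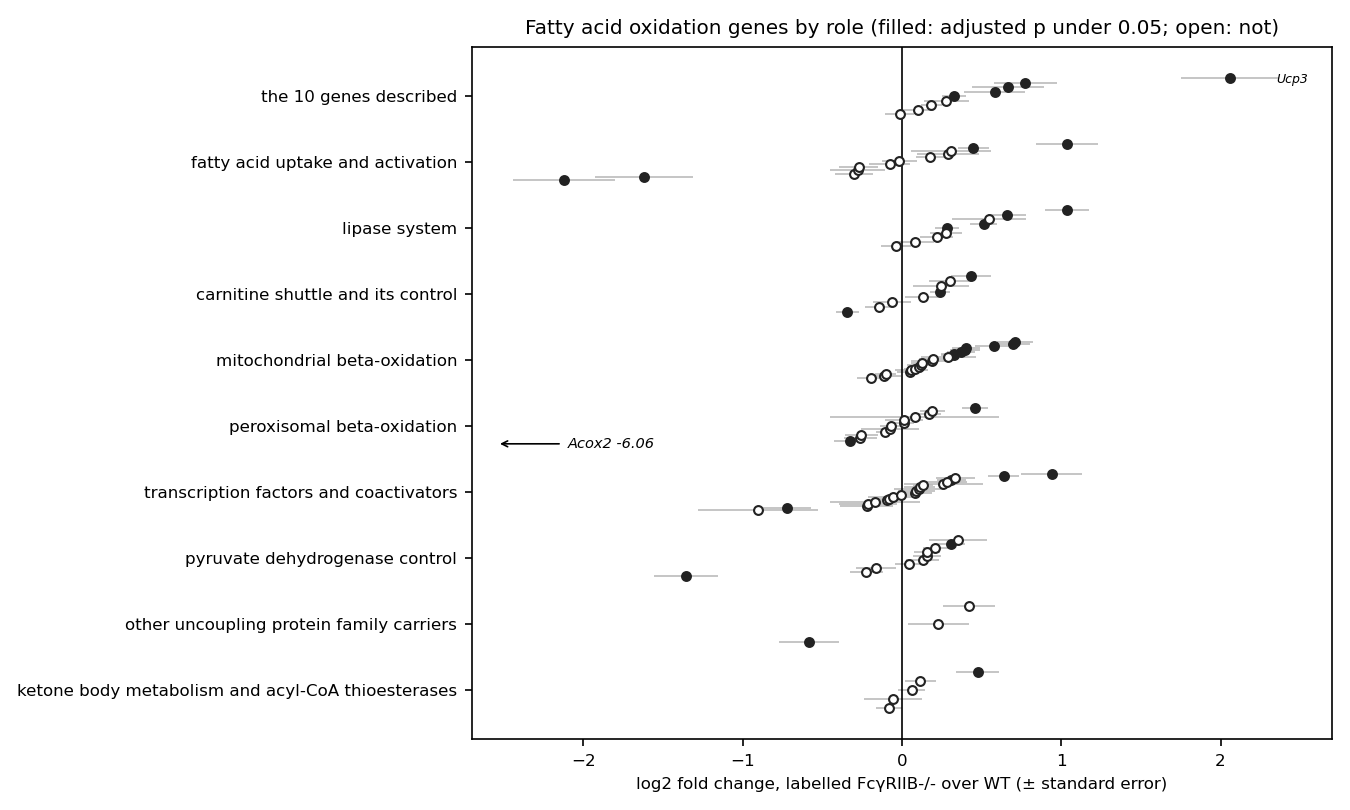
Log2 fold change with standard error (x axis) of the 9 tested genes described here (top) and of the 100 tested pathway genes by role; filled points passed an adjusted p of 0.05, open points did not, and the arrow marks Acox2, off the scale. Ucp3 lies beyond every pathway gene on the higher side, and the mitochondrial beta-oxidation and lipase groups have filled points on the higher side alone.

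After group means were removed, the genes whose log2 CPM varied over the 9 mice most like Ucp3 were Wdr12 (Pearson r = 0.95), Rps6ka6 (0.93), Wwp1 (0.92), Vav3 (0.92) and Chdh (0.92), among 12920 genes. Those most like Ucp2 were Rhpn2 (0.97), Hid1 (0.97), Tmem8 (0.97), Cd40 (0.96) and Col1a1 (0.96), the last being the leading osteoblast marker. These values share library and tissue composition and are a description of 9 mice, the highest of many, with no test.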

How the data were processed

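Mandible RNA (poly(A), strand-specific kit) was sequenced by the authors, who deposited raw read counts per gene from featureCounts. Per the labels, Trim Galore was used for trimming and HISAT 02.1.0 for alignment, against mm10. The strand setting and annotation release are not given in the sources used here. The table's 1 further library column matched no sample and was not used, and no deposited fold changes were used. Counts of all 27179 genes were filtered (filterByExpr, minimum count 10), scaled by TMM and tested for genotype over 9 mice with edgeR 4.0.16 (R 4.3.3) quasi-likelihood tests with Benjamini-Hochberg adjustment at 0.05. P-values measure the spread between these mice. DESeq2 1.42.0 and other alternatives are described in the closing section. The test script was checked on simulated data.

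The genes and lists were chosen with earlier results of these data known. The text named all 10 genes, Fcgr2b, in each pathway group up to 2 genes with the largest rise and 2 with the largest fall past the threshold (average log2 CPM of at least 0), a fixed set (Ppara, Ppard, Pparg, Ppargc1a, Ucp1, Cpt1c, Pdk1, Pdk2, Pdk3 and Acadl), the most abundant gene of each marker panel and the 5 genes most like Ucp3 and Ucp2; neighbours of Ucp3 and single adipocyte markers were added after their values were seen. Lengths were those of GENCODE M21 transcripts paired with RefSeq. Replicate numbers did not pair the mice. A gene that this rule names is not reported here.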

Additional observations from a re-analysis of the deposited data

Results flagged for a closer look

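Of 46 sets of 4 or 5 mice checked for a single mouse far from the rest by Dixon's criterion, 3 had one, where chance gives about 1 in 20. Acadm in WT mouse 2 was 85.8 CPM, below the 108 to 114 CPM of the other WT mice. This mouse also had the lowest muscle marker sum, 10151 CPM, and the part of muscle content in the value was not tested. The granulocyte marker sum of WT mouse 5 was 3764 CPM, against 1248 to 1948 CPM in the other WT mice. The B cell marker sum of WT mouse 2 was 137 CPM, against 60.4 to 71.3 CPM in the other WT mice.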

How the results depend on the processing

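Of the 10 genes 5 were higher and of the 100 pathway genes 22 were higher and 8 lower. With total counts alone as scaling these were 3 for the 10 genes and 15 higher and 13 lower for the pathway, while over all genes the share of calls that were higher went from 42.1% to 25.7%. With the muscle markers as a covariate 1 of the 10 genes and 1 pathway gene were higher and 7 pathway genes lower, and with the granulocyte markers as a covariate 0, 0 and 0. At an adjusted p of 0.01 the counts were 2 of the 10 genes and 13 pathway genes higher and 6 lower. Leaving out each mouse in turn gave 3 to 5 of the 10 genes higher (3 without WT mouse 3 and without mouse 1 or mouse 2 labelled FcγRIIB-/-, Angptl4 and Cd36 being lost) and 20 to 26 pathway genes higher and 6 to 9 lower. The Ucp3 log2 difference per muscle marker level, 1.24, ranged from 0.93 to 1.55 over the same omissions, the extremes being without mouse 2 and without mouse 4 labelled FcγRIIB-/-, and was 1.30 against slow fibre markers.

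The log2 fold change of Ucp3 ranged from 1.85 to 2.23 with each mouse left out. Signs turned for Acadm (-0.13, muscle covariate), Ucp2 (-0.28) and Hadha (0.26, both granulocyte covariate), and for Hadha in 5 omissions of 1 mouse (0.0049 to 0.043, where all 9 omissions ranged from -0.095 to 0.043), none of which passed. Ucp2 passed without WT mouse 2 (0.41). Cpt1a passed with DESeq2 (0.20), with its size factors in edgeR, with a minimum of 10 counts in every library and without mouse 3 labelled FcγRIIB-/- (0.23). The causes were not tested.

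Same-numbered mice of the 2 genotypes did not deviate together (r = 0.10, 0.03, -0.11 and -0.07 for mice 1 to 4), so the replicate numbers do not pair the samples. With the replicate block 4 of the 10 genes were higher, Angptl4 being the gene lost, and 19 pathway genes were higher and 6 lower.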
